A study of Mus musculus with 18 samples.

Results

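Glycine tRNAs were followed in the hippocampus of 18 mice, from precursor transcripts to the read types of the mature molecules. All entries of the nuclear glycine tRNAs were taken, by name alone and without any use of their values. They were 118 of the 3574 entries deposited. They covered 10 of 213 mature tRNAs and 26 of 335 precursor loci, grouped by anticodon into 4 of 50 families. The CCC family held 4 mature tRNAs and 5 precursor loci, the GCC family 4 and 13, the TCC family 1 and 7, and the ACC family 1 and 1. No antisense read was counted for any of them.

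The samples were hippocampi of male mice injected at 6 months of age, on both sides, into CA1 and the dentate gyrus and killed 4 weeks later. A neuron-targeted rAAV2/8 vector carried either a control hairpin (shCT) or a hairpin against RTP801 (shRTP801) under the H1 promoter, and GFP under the RSV promoter, so that animals of every group received the virus and GFP. The hosts were WT mice on a B6SJL background or 5xFAD mice, which carry mutant human APP and mutant human PSEN-1 as transgenes under the murine Thy-1 promoter. RTP801 is a stress-induced protein known for its restraint of mTOR signalling. There were 5 WT shCT mice (numbers 3, 5, 6, 11 and 15), 4 WT shRTP801 mice (4, 10, 17 and 21), 3 5xFAD shCT mice (1, 16 and 18) and 6 5xFAD shRTP801 mice (2, 7, 8, 12, 14 and 19). The transgenes and the virus are directed to neurons, whereas the RNA came from whole hippocampi, and fewer cells of a type cannot be told apart from less RNA per cell. The RTP801 transcript was not analysed here, so the silencing was not checked.

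A glycine tRNA carries glycine to the ribosome and pairs with a glycine codon through its anticodon. The genes are transcribed by RNA polymerase III as precursors with a 5′ leader and a 3′ trailer, which are cut off before CCA is added. In stressed cells angiogenin and related nucleases can cleave the mature molecule in or near the anticodon loop, and the 5′ fragments of Gly-GCC and Gly-CCC tRNAs are among the fragments most often described in mammalian tissue and sperm. The present libraries could not see such fragments as such. RNA of 60 to 100 nt was cut from a gel and then broken by alkaline hydrolysis before sequencing, so a read that reaches 1 end of a tRNA was made from a longer molecule by the protocol. Mature reads were counted in 4 kinds. A whole read covers the tRNA from end to end, a 5′ read starts at the 5′ end, a 3′ read reaches the 3′ end, and an "other" read touches neither end. Their balance describes which stretch of each tRNA was read.

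Libraries held 18126375 to 34488923 reads, of which 9850676 to 20292469 were from mature nuclear tRNAs and 47875 to 318628 from precursors. In 3 libraries mature tRNAs took 98.0 to 98.7% of the reads against 31.9 to 85.8% in the other 15, and mitochondrial tRNAs took 0.00315 to 0.435% against 8.59 to 39.8%. These were mouse 5 of the WT shCT group, mouse 4 of the WT shRTP801 group and mouse 7 of the 5xFAD shRTP801 group, with none in the 5xFAD shCT group. The 3′ reads made up 92.4 to 95.4% of their mature reads against 52.1 to 81.2% elsewhere. The brain-enriched tRNA-Arg-TCT-4 was read in all 18 libraries and the Snord116 copies, which neurons express, in 15. The neuronal Mir124a-1 had reads in 13 libraries (median 2 reads) and the brain-enriched Mir9-1 in 4 (median 0). No entry was found here for Snord115, Mir124-2 or Mir128-1, or for markers of liver (Mir122), muscle (Mir1a-1, Mir133a-1, Mir206) and blood (Mir451a, Mir144), so the tissue was checked by few markers.

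Glycine tRNAs supplied 34.3% ± 9.93 (SD, n = 18) of all mature tRNA reads, from 14 to 50.9% in single mice. The family tRNA-Gly-CCC alone gave 26.5% ± 8.53 and was the most read of the 50 families. The family tRNA-Gly-GCC gave 7.0% ± 3.90 and ranked 4, tRNA-Gly-TCC gave 0.615% ± 0.375 and ranked 19, and Gly-ACC gave 0.202% ± 0.0809 and ranked 32. Within Gly-CCC nearly all reads were of tRNA-Gly-CCC-1, with 26.4% of mature reads. These are shares of reads and not numbers of molecules, and reads shared by near-identical tRNAs count several times in family sums. A second summary kept only the most read tRNA of each family and read type. On it glycine tRNAs gave 41.5% ± 12.4, Gly-CCC 36.4% ± 11.3, Gly-GCC 3.94% ± 2.13 and Gly-TCC 0.866% ± 0.515. Counting error was far below the spread between mice, since the 95% Wilson half-width of a Gly-CCC share was at most 0.0268 percentage points (such intervals cover counting error only).

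Each anticodon had its own mix of read types. Gly-CCC was read almost entirely at its 3′ end, with 96.8% ± 1.87 of its reads there and 1.63% ± 0.942 at the 5′ end. Summed over its tRNAs, Gly-GCC was read mainly in its interior, with 59.2% ± 16.4 of reads touching neither end. Another 31.7% ± 13.3 lay at the 3′ end and 8.00% ± 3.71 at the 5′ end. This sum counts reads shared by near-identical tRNAs several times. With only the most read Gly-GCC tRNA for each read type the order turned. The 3′ reads were then 51.1% ± 13.5, other reads 41.8% ± 14.5 and 5′ reads 5.35% ± 2.02. Gly-TCC was the most evenly read, with 51.2% ± 10.6 at the 3′ end, 23.3% ± 17.0 at the 5′ end and 16.6% ± 7.20 from end to end. For Gly-CCC and Gly-GCC whole reads were a small part, 1.07% and 1.14%. Gly-ACC was read at the 3′ end in 99.7% of cases. Over all libraries it had 10 reads at the 5′ end among 576971, and 12 libraries had none, so its 5′ to 3′ ratio rests on 0 to 4 reads per library and is not described further by group.

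**Figure D1:**
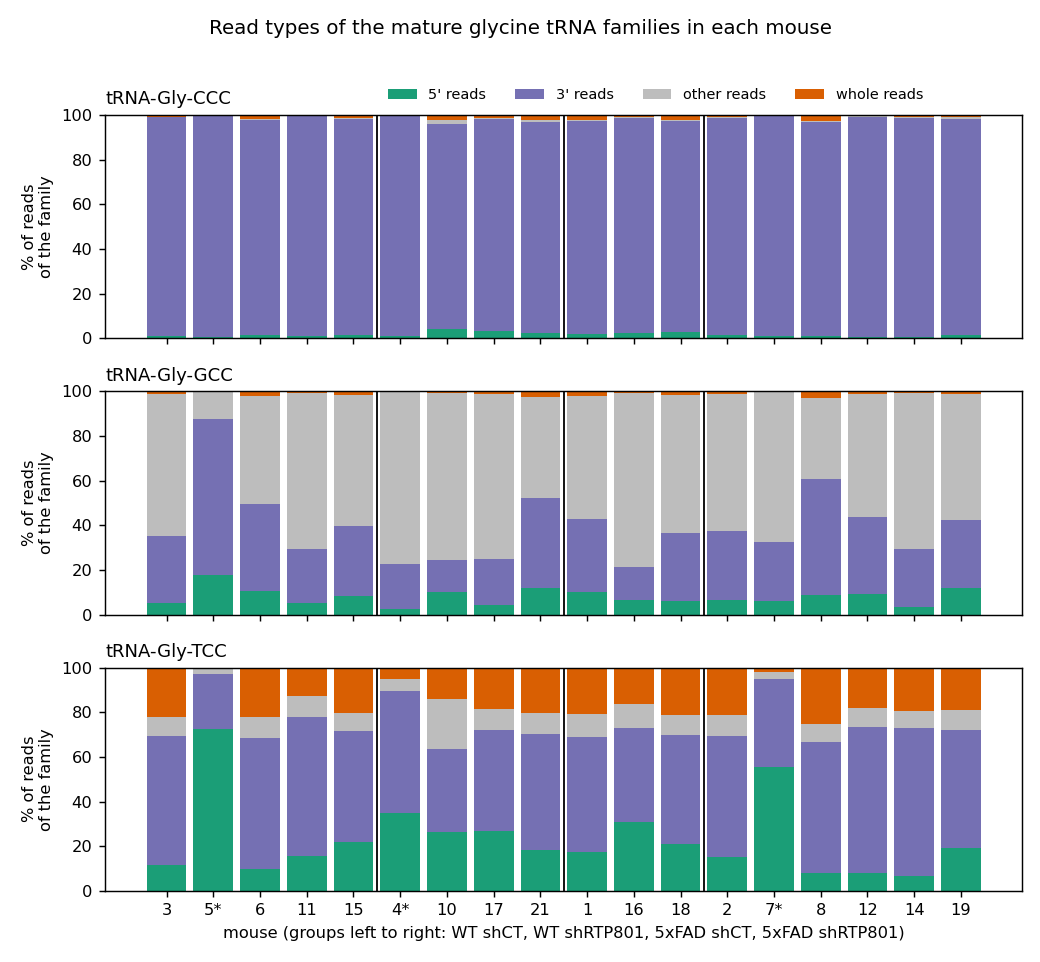
Read types of Gly-CCC, Gly-GCC and Gly-TCC in each of the 18 mice, as stacked percentages of the mature reads of the family (bars sum to 100%), with mice ordered by group and asterisks at the 3 libraries in which mature tRNAs took over 90% of reads. Gly-CCC is nearly all 3′ reads in every mouse, and the 5′ share of Gly-TCC is highest in mouse 5 (72.5%) and mouse 7 (55.3%). Gly-GCC is mostly other reads in most mice in this family sum, which counts shared reads several times.

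The 5′ against 3′ balance was put on 1 scale as the log2 ratio of 5′ to 3′ reads, after 0.5 read was added to each. On this scale Gly-CCC lay at -6.09 (SD 0.799), Gly-GCC at -2.03 (SD 0.610) and Gly-TCC at -1.40 (SD 1.24), each over 18 mice. Among the 49 families with enough end reads, ordered by their medians from the highest, Gly-TCC was at place 6, Gly-GCC at place 9, Gly-CCC at place 17 and Gly-ACC, with a median of -15.2, at place 49. These places are of family sums, in which reads shared by near-identical tRNAs count several times. The highest family was Cys-GCA, with a median of 4.69. Most tRNAs were thus read more often at the 3′ end than at the 5′ end, and Gly-CCC, although poor in 5′ reads, stood above the median family, which lay at -7.57 (SD 0.380 over mice).

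**Figure D2:**
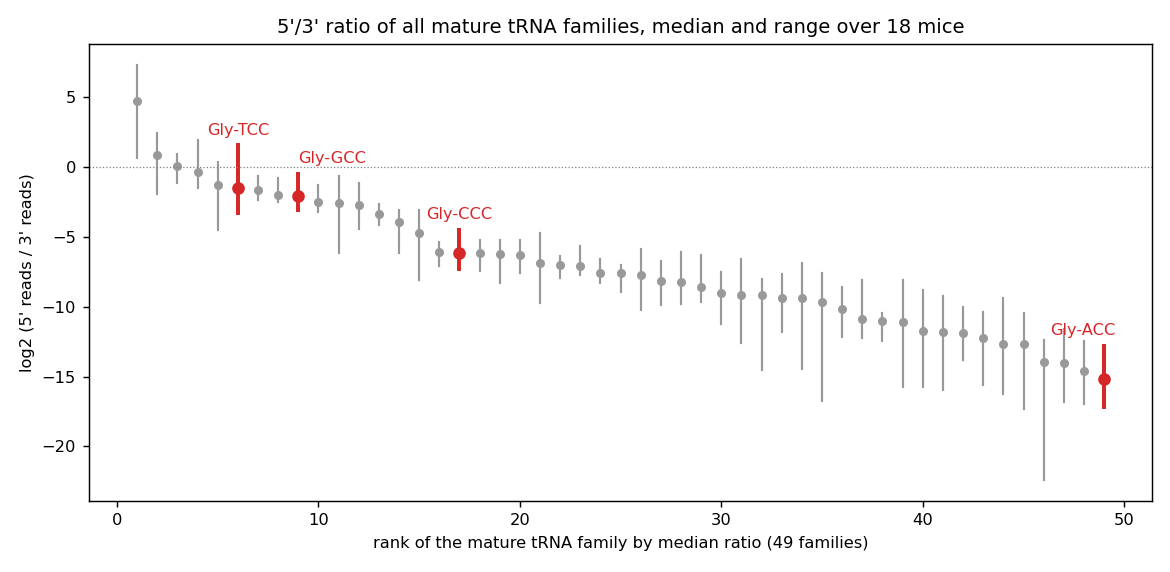
The log2 ratio of 5′ to 3′ reads for each of the 49 tRNA families, 1 point per family at its median over 18 mice with a line from the lowest to the highest mouse, in order of the median and with the glycine families marked. Gly-TCC (-1.49), Gly-GCC (-2.09) and Gly-CCC (-6.15) lie in the upper part of the order and Gly-ACC (-15.2) is the lowest.

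The anticodons differed within the same mice. Gly-GCC was above Gly-CCC in 18 of 18 mice by 4.06 log2 units (SD 0.655), and Gly-TCC was above Gly-CCC in 18 of 18 by 4.69 (SD 1.32). Each had a two-sided sign-flip permutation p of 2e-05 with 100000 resamples, and 3e-05 after Benjamini-Hochberg adjustment over the 3 pairs. Gly-TCC was above Gly-GCC in 13 of 18 mice by 0.63 (SD 1.21, permutation p = 0.0371). That last difference leaned on the libraries with over 90% mature reads. It was 0.19 without those 3 and did not pass the test. Its order was also sensitive to how reads shared by near-identical tRNAs were summed: with only the most read single tRNA of each family, Gly-TCC was above Gly-GCC in 17 of 18 mice by 1.92. Gly-GCC was then above Gly-CCC in 18 of 18 mice, by 2.81.

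Against 7 other families whose end fragments are often studied, the pair Gly-GCC and Gly-TCC sat among the 5′-rich ones when families were summed. Gly-GCC was above Lys-CTT by 4.41, Glu-TTC by 2.21, Val-AAC by 0.97 and Asp-GTC by 0.90, of which the last had the highest adjusted p, 0.0225 (permutation test, adjusted over 21 pairs). Its distance from Glu-CTC was -0.07 (SD 0.517, p = 0.556), from His-GTG 0.38 (SD 0.895, p = 0.0888) and from Val-CAC -0.40 (SD 1.22, p = 0.180), none past the permutation test. Only family sums were compared here. The most read single Gly-GCC tRNA had a mean of -3.32, above the sums of Glu-TTC (-4.24) and Lys-CTT (-6.44) but below those of the others. Gly-CCC was below 6 of the 7 in 18 of 18 mice. Against Lys-CTT it differed by 0.35 (SD 0.734, permutation p = 0.0604). Gly-TCC differed from Glu-CTC by 0.56 (permutation p = 0.0870) and from Val-CAC by 0.23 (p = 0.686) and was above the other 5. The families whose ratio followed that of Gly-GCC most closely over the 18 mice were Lys-CTT (Pearson r = 0.721), Gly-CCC (0.596), Sup-TCA (0.595), Ala-TGC (0.575) and Glu-CTC (0.534), which is a description of libraries that share depth and read-type balance.

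Single tRNAs of 1 anticodon lay as far apart as the anticodons did. In the CCC family tRNA-Gly-CCC-1, with 69117943 reads at the 3′ end, had a mean log2 ratio of -6.13, against -2.71 for CCC-2, -3.44 for CCC-3 and -1.76 for CCC-4. Reads of the latter 3 were few beside those of CCC-1, so the family value is that of CCC-1. In the GCC family the ratio was -3.32 for GCC-2, -1.66 for GCC-4, -0.88 for GCC-1 and 5.70 for GCC-3. All 4 had similar numbers of 5′ reads, 228096 for GCC-1, 356103 for GCC-2, 324490 for GCC-3 and 350548 for GCC-4, whereas their 3′ reads ran from 6188 for GCC-3 over 401431 for GCC-1 and 1204292 for GCC-4 to 3288565 for GCC-2. The order of the GCC tRNAs was therefore set by which 3′ ends were counted to them. A read that fits several near-identical tRNAs was counted at each of them. GCC-1 and GCC-2 shared nearly all of their other reads (3065768 and 3065743), and the 5′ reads of GCC-2 and GCC-4 differed by 1.56%. Sums over the GCC family thus count some reads several times, and the ratio of a single GCC tRNA cannot be read on its own.

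The main question of the design was whether these balances differed with the 5xFAD genotype, with the silencing of RTP801, or with their combination. Among Gly-CCC, Gly-GCC and Gly-TCC the groups lay farthest apart, relative to their spread, for Gly-CCC. Its mean log2 ratio of 5′ to 3′ reads was about as high in WT shRTP801 as in 5xFAD shCT mice, and lower, at nearly equal levels, in WT shCT and 5xFAD shRTP801 mice. With all 18 libraries neither a contrast nor the interaction of genotype and treatment passed adjustment over the 49 families.

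In WT shCT mice the Gly-CCC ratio was -6.60 in mouse 3, -7.11 in mouse 5, -6.20 in mouse 6, -6.73 in mouse 11 and -6.00 in mouse 15. In WT shRTP801 mice it was -6.60 in mouse 4, -4.51 in mouse 10, -4.88 in mouse 17 and -5.41 in mouse 21. In 5xFAD shCT mice it was -5.76 in mouse 1, -5.42 in mouse 16 and -5.12 in mouse 18. All 3 of these lay above every WT shCT mouse. The 5xFAD shRTP801 mice ran from -7.27 over a median of -6.52 to -5.81, and every one of them lay below every 5xFAD shCT mouse. The WT groups overlapped only through mouse 4, whose library had over 90% mature reads. The group means were -6.53 ± 0.439, -5.35 ± 0.910, -5.43 ± 0.323 and -6.56 ± 0.572 in that order (SD, n = 5, 4, 3 and 6).

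**Figure D3:**
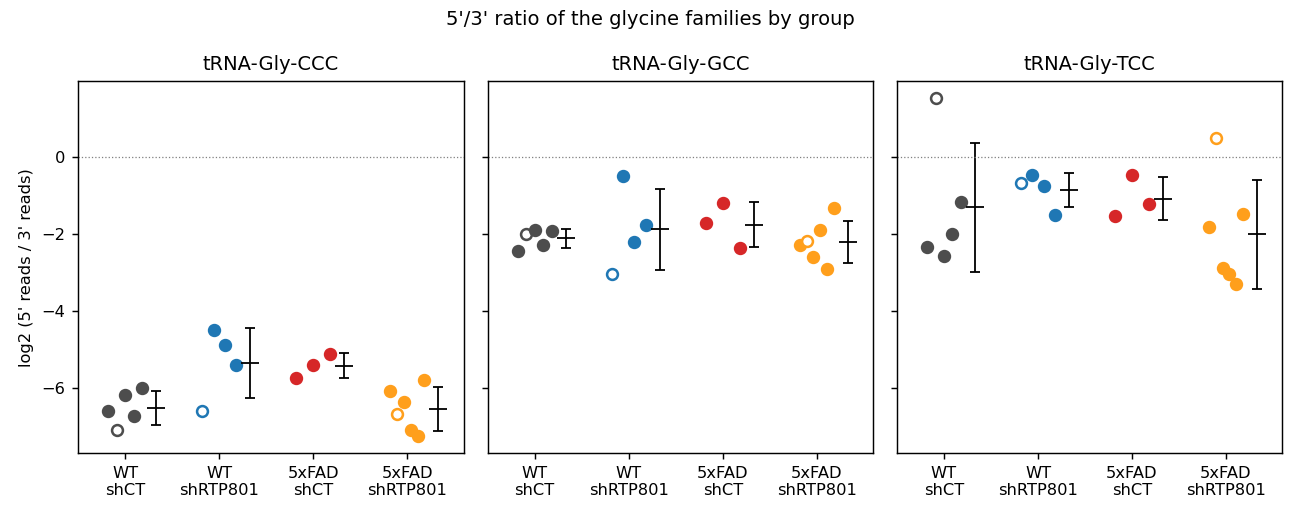
The log2 ratio of 5′ to 3′ reads of Gly-CCC, Gly-GCC and Gly-TCC by group, 1 point per mouse, with black bars for the mean ± SD and open circles for the 3 libraries with over 90% mature reads. For Gly-CCC the 3 5xFAD shCT mice (-5.76 to -5.12) lie above all WT shCT mice (-7.11 to -6.00) and above all 5xFAD shRTP801 mice (-7.27 to -5.81), while the groups of Gly-GCC and Gly-TCC overlap.

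The test for each contrast was limma over the 49 families, with all 4 groups in 1 fit. For Gly-CCC 5xFAD shCT differed from WT shCT by 1.10 (SE 0.487, unadjusted p = 0.0378, adjusted p = 0.527 by limma), and a two-sided exact permutation test of this value alone gave p = 0.0357, where 0.0179 is the smallest possible. WT shRTP801 differed from WT shCT by 1.18 (SE 0.447, limma adjusted p = 0.308, exact permutation p = 0.0556), and by 1.45 (exact p = 0.0286) without the libraries of mice 4 and 5. 5xFAD shRTP801 differed from 5xFAD shCT by -1.12 (SE 0.472, limma adjusted p = 0.777, exact permutation p = 0.0238, or -1.10 with an exact p of 0.0536 without the library of mouse 7), and from WT shRTP801 by -1.21 (SE 0.431, limma adjusted p = 0.602, exact permutation p = 0.0381). These 4 contrasts share their groups and are not independent of each other. With the log2 share of mature reads in a library as a covariate, limma gave 0.60 (unadjusted p = 0.203) for 5xFAD shCT against WT shCT and -0.59 (unadjusted p = 0.210) for 5xFAD shRTP801 against 5xFAD shCT. Mature tRNAs took 69.6, 98.7, 74.9, 82.4 and 31.9% of reads in WT shCT mice 3, 5, 6, 11 and 15. In WT shRTP801 mice 4, 10, 17 and 21 they took 98.0, 46.9, 41.6 and 34.1%. In 5xFAD shCT mice 1, 16 and 18 they took 52.9, 39.1 and 39.6%. In 5xFAD shRTP801 mice 2, 7, 8, 12, 14 and 19 they took 57.0, 98.0, 81.0, 85.8, 62.2 and 47.1%. Whether this share accounts for the Gly-CCC differences was not tested.

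The shRTP801 difference of the Gly-CCC ratio thus had opposite signs in WT and 5xFAD mice. The difference between both (the interaction) was -2.30 (SE 0.650, limma p = 0.00251, adjusted p = 0.123), and an exact test over the 10584 ways of assigning treatment within each genotype gave p = 0.00161. Without the 3 libraries with over 90% mature reads it was -2.55 with a limma adjusted p of 0.0459, past the threshold. That exclusion was not planned in advance, and it removes mice from every group except 5xFAD shCT. Without mouse 4 alone it was -2.72 (adjusted p = 0.0149). For Gly-GCC the same difference was -0.68 (limma adjusted p = 0.653) and for Gly-TCC -1.39 (limma adjusted p = 0.653), or -2.54 without the 3 libraries.

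The other tRNAs set the scale for this. At an adjusted p under 0.05 limma called 0 of 49 families (0%) in each of the 4 contrasts and in the interaction. At an unadjusted p under 0.05 it called 3 (6.12%) between 5xFAD shCT and WT shCT, 3 (6.12%) between WT shRTP801 and WT shCT, 1 (2.04%) between 5xFAD shRTP801 and 5xFAD shCT, 2 (4.08%) between 5xFAD shRTP801 and WT shRTP801 and 5 (10.2%) in the interaction. Gly-CCC was among them each time, and Gly-ACC, with its 10 reads, was the other glycine family in the interaction. edgeR on the recovered reads called 0 families after adjustment and 2, 3, 1, 2 and 4 before it. Only Gly-CCC among 49 families (2.04%) had every 5xFAD shRTP801 mouse below every 5xFAD shCT mouse, and it was 1 of 2 (4.08%) in which all 5xFAD shCT mice exceeded all WT shCT mice.

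Part of the pattern was common to most tRNAs. The median change over the 49 families was 0.52 between 5xFAD shCT and WT shCT, 0.40 between WT shRTP801 and WT shCT, -0.37 between 5xFAD shRTP801 and 5xFAD shCT, -0.30 between 5xFAD shRTP801 and WT shRTP801, and -0.71 in the interaction. Gly-CCC, Gly-GCC and Gly-TCC had the sign of the median each time. Measured instead from the median family of the same mouse, Gly-CCC lay at 1.12 ± 0.470 for WT shCT, at 2.08 ± 0.751 for WT shRTP801, at 1.97 ± 0.683 for 5xFAD shCT and at 1.12 ± 0.616 for 5xFAD shRTP801. On that scale its groups overlapped in every contrast, the exact permutation p ran from 0.0635 to 0.107, and the interaction was -1.81 (exact p = 0.00879, limma p = 0.0130, adjusted p = 0.319). This scale was added after the data had been seen.

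The same shift could be seen in the reads themselves. As a percentage of all Gly-CCC reads, 5′ reads made up 1.01, 0.718, 1.31, 0.927 and 1.51% in WT shCT mice 3, 5, 6, 11 and 15. In WT shRTP801 mice they made up 1.02% in mouse 4, 4.05% in mouse 10, 3.22% in mouse 17 and 2.24% in mouse 21, and in 5xFAD shCT mice 1.77% in mouse 1, 2.25% in mouse 16 and 2.74% in mouse 18. The 5xFAD shRTP801 mice ran from 0.636 to 1.73%, just below the lowest 5xFAD shCT mouse (1.77%). The means were 1.10% ± 0.316, 2.63% ± 1.3, 2.25% ± 0.484 and 1.10% ± 0.420. The share was higher in 5xFAD shCT than in WT shCT by 1.15 percentage points (exact permutation p = 0.0179), higher in WT shRTP801 than in WT shCT by 1.53 (exact p = 0.0317), and lower in 5xFAD shRTP801 than in 5xFAD shCT by 1.15 (difference -1.15, exact p = 0.0119, the smallest this design allows) and than in WT shRTP801 by 1.53 (difference -1.53, exact p = 0.0190). These exact tests carry no adjustment over families, and how many other families had separate groups on this measure was not counted. The interaction was -2.68 percentage points with an exact p of 0.000567. These tests are of the same reads as the log2 ratio and add no independent support.

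**Figure D4:**
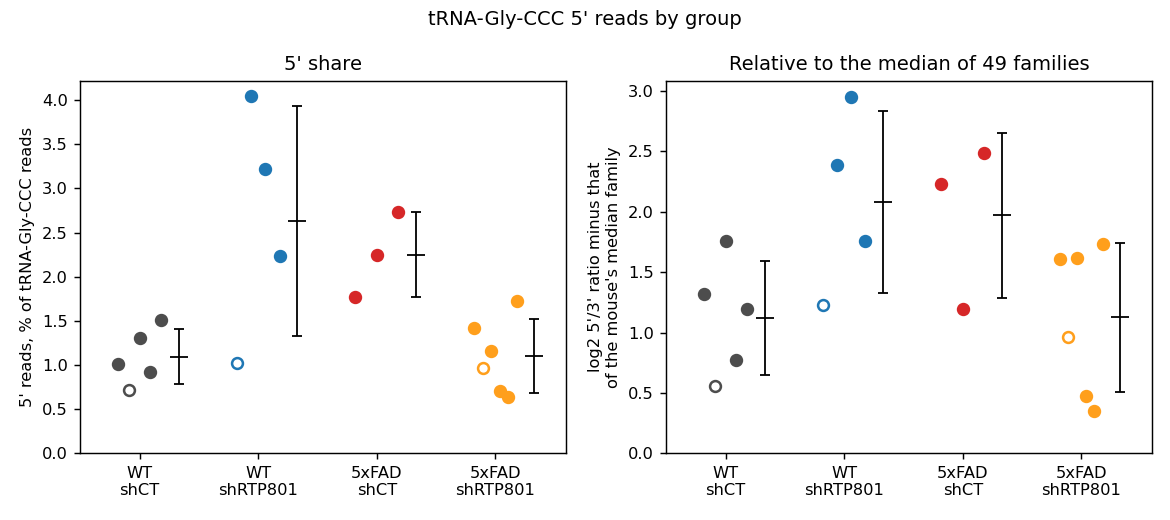
Gly-CCC 5′ reads by group, 1 point per mouse, on the left as a percentage of Gly-CCC reads and on the right as the log2 ratio of 5′ to 3′ reads minus that of the median family of the mouse, with black bars for the mean ± SD and open circles for the 3 libraries with over 90% mature reads. On the left the 5xFAD shRTP801 mice all lie below the 5xFAD shCT mice (means 1.10 and 2.25%), and on the right these groups overlap (means 1.12 and 1.97).

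The estimates for the ends of Gly-CCC had opposite signs, and neither passed adjustment. As a log2 change of its share of mature reads, the 5′ reads of Gly-CCC differed by 0.82 between 5xFAD shCT and WT shCT, 0.78 between WT shRTP801 and WT shCT, -0.82 between 5xFAD shRTP801 and 5xFAD shCT and -0.78 between 5xFAD shRTP801 and WT shRTP801. The 3′ reads differed by -0.27, -0.40, 0.30 and 0.43 in the same order. limma called 0 of 131 family read types (0%) in these contrasts after adjustment and 8 (6.11%), 11 (8.4%), 2 (1.53%) and 3 (2.29%) before it, none of them of a glycine tRNA. In the interaction it called 0 (0%) after adjustment and 13 (9.92%) before it, of which the 5′ reads of Gly-CCC were 1 (-1.60, unadjusted p = 0.0394, adjusted p = 0.397 by limma). Among the single tRNAs CCC-1 carried the pattern, with -1.13 (SE 0.533) between 5xFAD shRTP801 and 5xFAD shCT and -2.32 (SE 0.734) in the interaction, where the limma adjusted p was 0.555. limma called 0 of 183 single tRNAs (0%) after adjustment. Before it 7 (3.83%), 6 (3.28%), 5 (2.73%) and 3 (1.64%) were called in the 4 contrasts and 12 (6.56%) in the interaction, of which 0, 1, 1, 1 and 3 were among the 10 glycine tRNAs.

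None of the contrasts passed the test for Gly-GCC. Its log2 ratio of 5′ to 3′ reads was -2.45, -2.0, -1.91, -2.29 and -1.92 in WT shCT mice 3, 5, 6, 11 and 15, and -3.05, -0.50, -2.20 and -1.76 in WT shRTP801 mice 4, 10, 17 and 21. In 5xFAD shCT mice 1, 16 and 18 it was -1.73, -1.19 and -2.36, and in 5xFAD shRTP801 mice it ran from -2.90 to -1.33. All groups overlapped. The contrasts were 0.36 for 5xFAD shCT and 0.24 for WT shRTP801 against WT shCT, -0.44 for 5xFAD shRTP801 against 5xFAD shCT and -0.32 against WT shRTP801, with exact permutation p from 0.286 to 0.675. In the family sum most Gly-GCC reads touch neither end, and the sign depended on the denominator: with 5′ reads against all other reads of the family the contrasts against WT shCT were -0.23 and -0.51.

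Gly-TCC varied most with the library. Its log2 ratio was 1.54 in mouse 5 and 0.49 in mouse 7, both with over 90% mature reads, and between -3.29 and -0.47 in the other 16 mice. The group means were -1.31 ± 1.68 for WT shCT, -0.85 ± 0.447 for WT shRTP801, -1.08 ± 0.550 for 5xFAD shCT and -2.0 ± 1.42 for 5xFAD shRTP801. The contrasts were 0.23, 0.46, -0.93 and -1.16 in the order used above, with exact permutation p from 0.148 to 0.875. Without the 3 libraries they were 0.94, 1.11, -1.42 and -1.60, and the lowest exact p was 0.0536. The unadjusted limma p was then 0.0137 for 5xFAD shRTP801 against 5xFAD shCT (adjusted 0.557), 0.00682 against WT shRTP801 (adjusted 0.167) and 0.00357 for the interaction (adjusted 0.0780). As a share of mature reads, the 5′ reads of Gly-TCC were 0.146, 0.152 and 0.125% in 5xFAD shCT mice 1, 16 and 18 and at most 0.111% in 5xFAD shRTP801 mice, so these groups did not overlap, as in 2 of 131 read types (1.53%) in this direction (means 0.141 and 0.0750%, exact permutation p = 0.0238, limma adjusted p = 0.946). Over mice the ratios of Gly-CCC and Gly-TCC correlated with r = 0.222 in all 18 libraries and r = 0.889 in the 15 others, a description of libraries that share the balance of read types.

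With all libraries no contrast in the amount of Gly-CCC or Gly-GCC passed adjustment. Gly-CCC took 34.7, 13.1, 38.3, 30.4 and 27.6% of mature reads in WT shCT mice 3, 5, 6, 11 and 15, with the lowest value in the library with over 90% mature reads. In WT shRTP801 mice 4, 10, 17 and 21 it took 24.8, 22.9, 14.4 and 24.5%, below every WT shCT mouse except mouse 5. WT shRTP801 differed from WT shCT by -7.18 percentage points (exact permutation p = 0.206), and by -12.2 without mice 4 and 5 (exact p = 0.0286, the smallest possible, limma adjusted p = 0.215). The 3′ reads of Gly-CCC as a share of mature reads differed likewise, by -7.51 points (exact permutation p = 0.183) and by -12.6 without mice 4 and 5 (exact p = 0.0286, limma adjusted p = 0.211). The means were 28.8% ± 9.70 for WT shCT, 21.6% ± 4.89 for WT shRTP801, 23.9% ± 8.10 for 5xFAD shCT and 29.1% ± 9.72 for 5xFAD shRTP801. For Gly-GCC they were 5.52% ± 3.16, 8.18% ± 4.83, 9.23% ± 1.80 and 6.33% ± 4.65. The log2 changes were -0.24, -0.36, 0.27 and 0.39 for Gly-CCC and 1.23, 0.78, -0.94 and -0.49 for Gly-GCC, and the lowest limma adjusted p of these was 0.532, where limma called 0 of 49 families (0%). Before adjustment 2 (4.08%), 6 (12.2%), 1 (2.04%) and 0 families passed in the contrasts and 4 (8.16%) in the interaction, none of them glycine. The Gly-GCC share was lowest in the 3 libraries with over 90% mature reads, at 0.450% in mouse 5, 0.901% in mouse 7 and 2.00% in mouse 4. Gly-TCC shares averaged 0.546 to 0.694% over the groups.

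Among precursors the order of the anticodons was another one. Glycine loci gave 21.8% ± 7.49 (SD, n = 18) of all precursor reads, from 7.99 to 40.1%. Gly-GCC gave 12.3% ± 5.45 and ranked 2 of 48 families, Gly-CCC gave 5.25% ± 1.75 and ranked 8, Gly-TCC gave 4.22% ± 1.92 and ranked 9, and Gly-ACC gave 0.0164% and ranked 45. Almost all of these were partial precursor reads, 323125, against 1867 that covered a whole precursor and 14 from a trailer. The share of mature reads exceeded the share of precursor reads for Gly-CCC in 18 of 18 mice, by 2.33 ± 0.376 log2 units. It was below it for Gly-GCC in 17 of 18 (-1.01 ± 0.708) and for Gly-TCC in 18 of 18 (-2.96 ± 0.544). Of the 26 loci 21 averaged at least 100 reads per library, 2 of 5 for CCC, 12 of 13 for GCC and 7 of 7 for TCC. The most read were CCC-1-2 with a mean of 3145 reads, GCC-2-1 with 2438, CCC-1-1 with 2100, GCC-2-2 with 2053, GCC-2-6 with 1108, GCC-2-8 with 1078, GCC-2-3 with 811 and TCC-1-7 with 739. Some loci had identical reads in every library (GCC-1-1, GCC-1-2 and GCC-1-3, and TCC-1-2, TCC-1-3 and TCC-1-4), so their reads cannot be assigned to 1 gene.

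**Figure D5:**
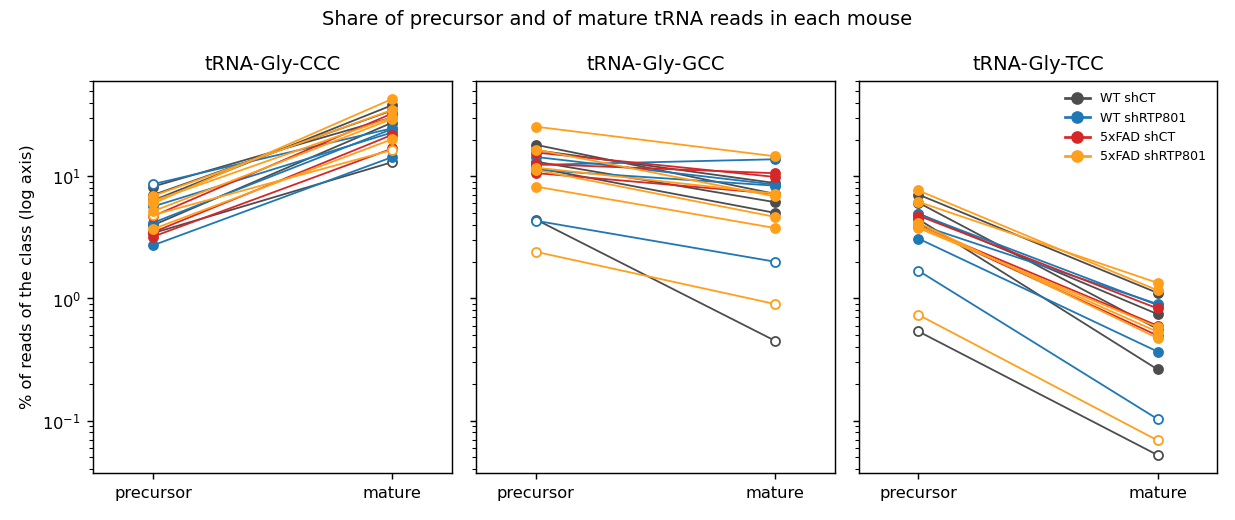
Share of precursor reads (left) and of mature reads (right) of Gly-CCC, Gly-GCC and Gly-TCC on a log axis in percent, 1 line per mouse coloured by group, with open circles for the 3 libraries with over 90% mature reads. Gly-CCC takes a larger share of mature reads (mean 26.5%) than of precursor reads (5.25%), Gly-GCC and Gly-TCC a smaller one (7.0 against 12.3% and 0.615 against 4.22%), and the open circles are the lowest mice of Gly-GCC and Gly-TCC on both sides.

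No contrast in precursor shares passed adjustment either. Gly-CCC precursors averaged 5.81% ± 2.05 for WT shCT, 5.30% ± 2.53 for WT shRTP801, 3.81% ± 0.806 for 5xFAD shCT and 5.48% ± 1.15 for 5xFAD shRTP801. 5xFAD shRTP801 differed from 5xFAD shCT by 0.52 log2 units with overlapping groups, and the percentages alone gave an exact permutation p of 0.0476, or 0.0714 without mouse 7. The other contrasts were -0.55 for 5xFAD shCT and -0.18 for WT shRTP801 against WT shCT and 0.15 for 5xFAD shRTP801 against WT shRTP801, and the lowest limma adjusted p was 0.359. limma called 0 of 48 precursor families (0%) and 0 of 333 loci (0%), where the lowest adjusted p of a glycine locus was 0.387. Before adjustment 6 (12.5%), 2 (4.17%), 2 (4.17%) and 3 (6.25%) families and 52 (15.6%), 34 (10.2%), 25 (7.51%) and 7 (2.1%) loci were called in the 4 contrasts, and 10 families (20.8%) and 51 loci (15.3%) in the interaction. None of the glycine families or of the 26 glycine loci was among these.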

How the data were processed

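Small RNA of 18 mouse hippocampi was sequenced by Hydro-tRNA-seq (60 to 100 nt by gel, alkaline hydrolysis, 50-base paired reads). Per the labels and the study's methods the authors counted reads with tRAX, for which the submitters' processing notes name the mm39 build (aligner not given in the sources used here). The deposited signal was 1 table of read counts divided by size factors. All values of a library were whole multiples of its smallest one (100% within a tolerance of 1e-06), so whole reads were recovered, and depth was their sum. Of the other small RNAs 324 near-identical copies (within 5% of each other) were left out of that sum. A read that fits several tRNAs was counted at each.

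Families were sums over an anticodon. Ratios were log2 of 5′ over 3′ reads (0.5 read added, families with at least 100 such reads on average), and shares were log2 of the percentage plus 0.001. Groups were compared by limma (1 fit over 4 groups, Benjamini-Hochberg adjustment over all features of a contrast, threshold 0.05) and single values by two-sided exact permutation tests. Anticodons were compared within mice by sign-flip permutation with 100000 resamples. The code was tested on simulated data. The text names all glycine families and mature tRNAs, the 8 most read precursor loci (mean of at least 100 reads) and the 5 families closest to Gly-GCC. The members, lists and tests were chosen with earlier results of these data known. Each sample is 1 mouse. Alternatives were edgeR and DESeq2 on the recovered reads, other pseudocounts, filters, denominators and summaries, a depth-related covariate, and leaving out each mouse or the 3 libraries with over 90% mature reads. Leaving out these 3 libraries was not planned in advance. Versions were R 4.3.3, limma 3.58.1, edgeR 4.0.16, DESeq2 1.42.0, Python 3.11.15, numpy 2.4.6, pandas 2.3.3 and scipy 1.17.1. No tRNA sequence was used here.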

Additional observations from a re-analysis of the deposited data

Results flagged for a closer look

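For 33 values of Gly-CCC, Gly-GCC and Gly-TCC each of 3 groups was examined for a mouse that stood apart, and 10 of 99 group values had one. For independent values chance alone gives about 1 in 20. Many of the 33 values are measures of the same reads, so the count cannot show an excess over chance. Mouse 8 of the 5xFAD shRTP801 group had more whole Gly-CCC reads than the rest of its group, 1.16% of mature reads against 0.242% in the next mouse, and 2.69% of Gly-CCC reads against 0.923%. It also had 52.2% of its Gly-GCC reads at the 3′ end against 34.6% in the next. Mouse 14 of the same group had Gly-GCC other reads at 10.2% of mature reads against 4.21% in the next. Mouse 21 of the WT shRTP801 group had 45.2% of its Gly-GCC reads in that class against 74.2% in the nearest. The remaining 5 came from libraries with over 90% mature reads. The 5′ reads were 72.5% of Gly-TCC reads in mouse 5 (next 22.1%) and 55.3% in mouse 7 (next 19.1%), other reads were 2.22% in mouse 5 (nearest 7.72%) and 3.50% in mouse 7 (nearest 7.70%), and whole reads were 1.76% in mouse 7 (nearest 18.3%).

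For 5 of 33 interactions the difference between WT and 5xFAD mice in the shRTP801 effect had an exact permutation p under 0.05, without adjustment over the 33. For Gly-CCC these were the log2 ratio of 5′ to 3′ reads (-2.30, exact p = 0.00161), 5′ reads in percent of Gly-CCC reads (-2.68 percentage points, exact p = 0.000567), 3′ reads in percent of Gly-CCC reads (4.59, exact p = 0.00765) and 5′ reads in percent of mature reads (-0.425, exact p = 0.0202). They are measures of the same reads. For Gly-TCC it was 5′ reads in percent of mature reads (-0.116, exact p = 0.0306).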

How the results depend on the processing

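The Gly-CCC ratio kept its sign in all 4 contrasts and in the interaction under every alternative and every omission of 1 mouse, but not its size. With the log2 mature share as a covariate 5xFAD shCT against WT shCT was 0.60 (limma adjusted p = 0.964, unadjusted 0.203) and 5xFAD shRTP801 against 5xFAD shCT was -0.59 (limma adjusted p = 0.945, unadjusted 0.210). Its interaction ran from -2.55 to -1.44 over the alternatives (limma p at most 0.0377) and from -2.72 (without mouse 4) to -2.02 (without mouse 10). The interaction passed adjustment without mouse 4, and without the 3 libraries with over 90% mature reads (-2.55), an exclusion not planned in advance. Gly-TCC minus Gly-GCC was 0.63 but not past an exact sign test, 0.19 without the 3 libraries, and 0.46 to 0.74 without 1 mouse, losing its call without mouse 5, 15, 4, 17, 16, 18 or 7. With the logit of the 5′ share in place of the ratio the Gly-GCC contrasts turned to -0.23 (5xFAD shCT against WT shCT), -0.51 (WT shRTP801 against WT shCT) and 0.24 (5xFAD shRTP801 against WT shRTP801) and its interaction to 0.47. Without 1 mouse the second ran from -0.22 (without mouse 10) to 0.63 and the third from -0.71 to 0.14 (without mouse 10). The Gly-TCC ratio between 5xFAD shCT and WT shCT was -0.017 after subtraction of the median family and -0.088 to 0.94 without 1 mouse (below 0 without mouse 3, 6 or 16).

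With the log2 mature share as a covariate the Gly-GCC share turned to 0.29 (5xFAD shRTP801 against 5xFAD shCT) and 0.35 (against WT shRTP801), and the Gly-CCC precursor share to 0.0058 (WT shRTP801 against WT shCT) and -0.064 (5xFAD shRTP801 against WT shRTP801). For the former of those precursor contrasts edgeR gave 0.0027 and DESeq2 0.022, and leaving out 1 mouse gave -0.46 to 0.10 (above 0 without mouse 17), and for the latter -0.13 (without mouse 17) to 0.42. Gly-GCC 5′ reads as a percentage of all reads turned to -0.10 (WT shRTP801 against WT shCT) and 0.20 (5xFAD shRTP801 against WT shRTP801), and without 1 mouse they ran from -0.29 to 1.32 (below 0 without mouse 5, 10 or 21) and from -1.27 to 0.34 (above 0 without mouse 10, 21 or 7).

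Counts of features past the threshold were 0 throughout, except as follows. Without the 3 libraries the ratio gave 1 family in WT shRTP801 against WT shCT and 1 in the interaction, and the read types gave 1, 3 (5xFAD shRTP801 against 5xFAD shCT) and 1. DESeq2 on reads gave 1 family for the mature share in WT shRTP801 against WT shCT. Leaving out 1 mouse gave 0 to 1 for the ratio in WT shRTP801 against WT shCT (mouse 5) and in the interaction (mouse 4), 0 to 1 for read types in the same comparisons (mouse 4), and 0 to 2 for precursor families in 5xFAD shCT against WT shCT (mouse 15). The cause of these changes was not tested. All other directions of the differences given were kept, and so were all other calls by adjusted p. Without the 3 libraries some unadjusted exact permutation tests changed sides of 0.05. For WT shRTP801 against WT shCT the Gly-CCC ratio, share of mature reads and 3′ share of mature reads each came to an exact p of 0.0286, and for 5xFAD shRTP801 against 5xFAD shCT the Gly-CCC ratio came to 0.0536 and its precursor share to 0.0714. Differences of the remaining shares and read types are given as levels only, since their sign turned in 71 of 386 values under other settings (lowest adjusted p = 0.0919). No paired analysis was possible because the mouse numbers are not shared between groups.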
